A study of Mus musculus with 12 samples.

Results

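The insulin-like growth factor (IGF) axis was followed here through 10 genes: the ligands Igf1 and Igf2, the receptors Igf1r and Igf2r, and the binding proteins Igfbp2, Igfbp3, Igfbp4, Igfbp5, Igfbp6 and Igfbp7. They were taken by symbol from the deposited table of 17379 genes, and all 10 were found. The table holds RNA-seq of 12 hearts from mice aged 6 months, 3 per genotype. The nontransgenic hearts carry the label C57BL/WT. The deletion group was homozygous for MYBPC3Δ25bp, a deletion in the gene of cardiac myosin-binding protein C, and the variant group was heterozygous for HRCS96A, an altered form of the sarcoplasmic reticulum protein HRC, which binds calcium. The compound hearts were heterozygous for HRCS96A and homozygous for MYBPC3Δ25bp. The HRCS96A and compound hearts were all from females, whereas the nontransgenic and MYBPC3Δ25bp groups each held 2 males and 1 female. The labels call the altered mice transgenic and do not say how either allele was made. They do not say whether the animals of a group came from separate litters, so each p-value speaks only of the spread among these 12 libraries.

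IGF-1 and IGF-2 are secreted peptides that act through the type 1 receptor, a tyrosine kinase feeding the PI3K-AKT-mTOR pathway, and in heart muscle this signal is known for supporting growth and survival of the cardiomyocyte. The type 2 receptor, encoded by Igf2r, also carries lysosomal enzymes and clears IGF-2 from the cell surface without a kinase. The IGFBP proteins hold the ligands in the extracellular space and set how much reaches a receptor. In the heart the ligands and binding proteins come largely from fibroblasts, vessels, epicardium and macrophages, which is why markers of these cells are given beside the results.

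In 5 of the 10 genes, every compound library lay below every nontransgenic library, as in 10.0% of all tested genes: Igf1, Igf2, Igfbp4, Igfbp6 and Igfbp7. The promoter stretch of each of these 5, picked by that separation, is shown. It covers the 250 bases before a RefSeq transcript start, 5′ to 3′ on the gene's strand, in build GRCm38.p6. Shared control through these stretches was not tested. Capitals mark any match, on either strand, to 4 motifs: the GC box GGGCGG, the TATA box TATAAA, the CCAAT box CCAAT and the forkhead motif GTAAACA. The stretches lie at chr10:87860861-87861110 on the plus strand (Igf1), chr7:142666817-142667066 on the minus strand (Igf2), chr11:99040994-99041243 on the plus strand (Igfbp4), chr15:102143936-102144185 on the plus strand (Igfbp6) and chr5:77408046-77408295 on the minus strand (Igfbp7).
Igf1: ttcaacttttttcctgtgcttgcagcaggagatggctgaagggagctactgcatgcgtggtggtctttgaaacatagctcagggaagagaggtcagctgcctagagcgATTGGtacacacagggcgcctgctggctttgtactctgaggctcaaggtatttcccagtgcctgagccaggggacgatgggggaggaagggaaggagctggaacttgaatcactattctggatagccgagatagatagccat
Igf2: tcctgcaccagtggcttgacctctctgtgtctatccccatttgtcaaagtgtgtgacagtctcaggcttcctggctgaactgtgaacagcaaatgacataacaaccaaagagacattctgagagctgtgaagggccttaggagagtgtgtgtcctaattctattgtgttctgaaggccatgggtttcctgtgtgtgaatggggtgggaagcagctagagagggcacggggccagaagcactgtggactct
Igfbp4: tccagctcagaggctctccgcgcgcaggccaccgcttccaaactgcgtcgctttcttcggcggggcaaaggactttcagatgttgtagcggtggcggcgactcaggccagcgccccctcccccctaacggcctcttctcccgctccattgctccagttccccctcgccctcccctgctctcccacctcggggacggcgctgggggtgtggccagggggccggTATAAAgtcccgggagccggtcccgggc
Igfbp6: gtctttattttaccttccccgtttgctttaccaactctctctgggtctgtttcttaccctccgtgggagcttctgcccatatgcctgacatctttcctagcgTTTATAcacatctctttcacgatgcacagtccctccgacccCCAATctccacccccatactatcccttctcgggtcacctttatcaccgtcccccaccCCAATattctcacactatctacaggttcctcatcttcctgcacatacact
Igfbp7: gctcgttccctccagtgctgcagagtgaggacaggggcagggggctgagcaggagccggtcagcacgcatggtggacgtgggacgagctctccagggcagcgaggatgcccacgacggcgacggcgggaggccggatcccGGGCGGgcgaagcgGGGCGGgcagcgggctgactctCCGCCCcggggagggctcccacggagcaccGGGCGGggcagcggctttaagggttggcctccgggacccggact

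No motif of the 4 was found in all 5 stretches. The Igfbp7 stretch held 4 GC boxes, a motif present in 32.7% of the 32851 RefSeq stretches of this length. Igfbp4 and Igfbp6 held 1 TATA box each, against 12.4% of all stretches. Igfbp6 held 2 CCAAT boxes and Igf1 held 1, against 33.8%, and the forkhead motif, present in 3.17%, was in none of the 5. Their GC content ran from 49.6% in Igfbp6 and 50.8% in Igf2 through 52.8% in Igf1 to 69.2% in Igfbp4 and 74.0% in Igfbp7, where the median stretch had 52.4%. These matches describe letters and not binding. Igf2 has 4 RefSeq starts and the one shown, without a match, is the farthest upstream. The stretches before its other starts had 47.6%, 68.8% and 66% GC, and held no match, 1 GC box, and 2 GC boxes with 1 CCAAT box. The Igf1 start lies 34733 bases inside the deposited gene span.

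Total estimated counts ran from 15615182 to 20581197 per library. Neither alteration is defined by a gene total, so the counts do not check the genotype labels. Mybpc3 itself measured 3521 to 4885 CPM (counts scaled to a common library size by the TMM method) in nontransgenic, 2464 to 2918 in MYBPC3Δ25bp, 2897 to 3848 in HRCS96A and 3532 to 3923 in compound hearts, and Hrc lay between 939 and 1375 CPM in the 12 libraries. Atrial transcripts differed widely between libraries. The summed CPM of 5 atrial muscle markers (Myl7, Nppa, Sln, Myl4, Bmp10) was 3418 to 8477 in nontransgenic and 3330.1 to 6034 in MYBPC3Δ25bp hearts. It was 8377, 2758 and 196 in HRCS96A replicates 1 to 3, and only 131 to 419 in compound hearts. Markers of cardiomyocytes summed to 50515 to 64463 CPM in nontransgenic, 48115 to 48310.1 in MYBPC3Δ25bp, 48967 to 58236 in HRCS96A and 56254 to 62182 in compound hearts. In bulk tissue, fewer cells of a type and less RNA per cell cannot be told apart.

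Compared per transcript length, in the deposited TPM values, which divide by transcript length and library size, the binding proteins led the axis. Igfbp7, which codes for a matrix-associated low-affinity binder, was highest at a median of 444 TPM (range 349.8 to 650.2). It was followed by Igfbp4 at 161 (103 to 282) and Igfbp5 at 92.1 (49.1 to 200.5), and this order held in all 12 libraries. The next 4 genes lay closer together. Igfbp6 had a median of 49.9 TPM, Igf2 42.8, Igfbp3 37.7 and Igf2r 30.8. Igfbp6 exceeded Igf2 in 7 of 12 libraries, Igf2 exceeded Igfbp3 in 8, and Igfbp3 exceeded Igf2r in 10, so these neighbours did not separate beyond their spread. Igf1 (6.46 TPM) and Igf1r (4.83 TPM) were the lowest of the genes that passed the filter, and Igf1 exceeded Igf1r in 9 of 12 libraries. Igf2r was above Igf1 in all 12.

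**Figure D1:**
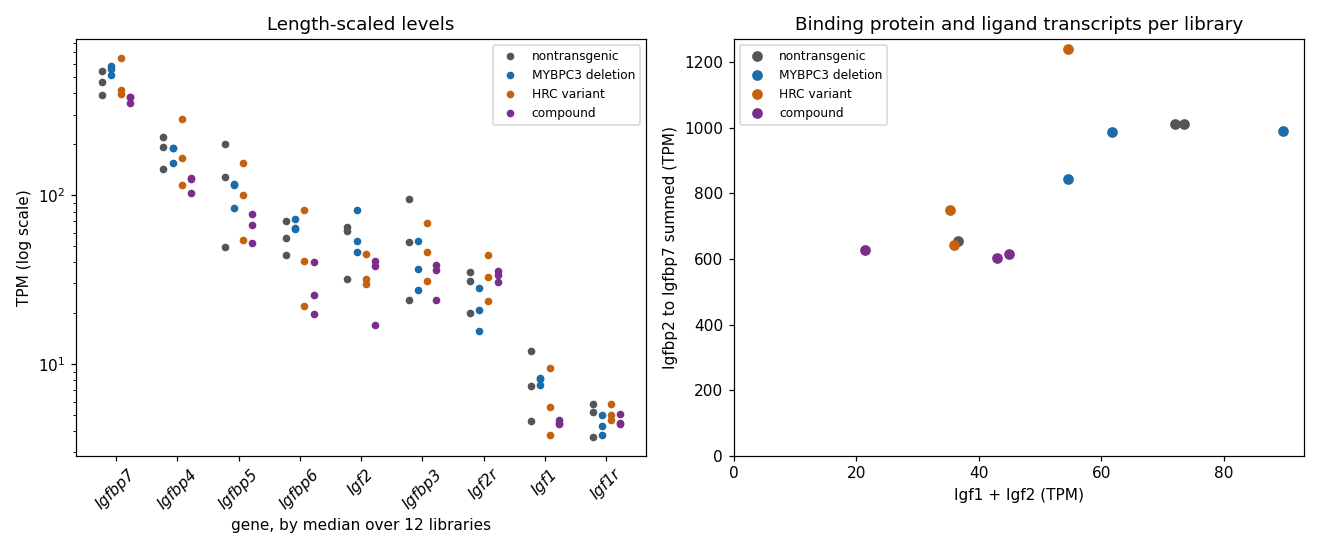
Left, deposited TPM on a log axis of 9 IGF axis genes in each of the 12 libraries, ordered by median, with 1 point per library coloured by genotype. Right, the summed TPM of Igfbp2 to Igfbp7 against Igf1 plus Igf2 in each library: the compound libraries sit at 604 to 626 TPM of binding proteins, and HRCS96A replicate 1 is highest at 1239.

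Among the ligands, Igf2 messages outnumbered Igf1 messages 3.79 to 11.0 times per length. Binding protein messages outnumbered ligand messages in every library. The ratio of their summed TPM was 13.8 to 17.9 in nontransgenic, 11.1 to 16.0 in MYBPC3Δ25bp, 17.9 to 22.7 in HRCS96A and 13.7 to 29.1 in compound hearts. The compound value of 29.1 came from replicate 3, which had the lowest Igf2 level of all libraries, and the other two compound libraries were at 13.7 and 14.0. Summed binding protein TPM was narrow in compound hearts at 615 ± 11.1 (SD, n = 3), against 892 ± 206 in nontransgenic, 941 ± 83.5 in MYBPC3Δ25bp and 878 ± 318 in HRCS96A hearts. Igfbp7 alone made up 46.2% to 65.3% of it.

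Igf2 (chr7:142650768-142666816, minus strand, GRCm38.p6), the imprinted ligand that is high in the fetus, was low in nearly every heart with the HRC variant. It had the smallest edgeR p of the members in compound against nontransgenic and against MYBPC3Δ25bp hearts. In compound against HRCS96A hearts its edgeR log2 difference was only −0.14 (SE 0.22, adjusted p = 0.975). It measured 70.1, 98.8 and 103 CPM in nontransgenic replicates 1 to 3 and 88.8, 76.4 and 129.5 in MYBPC3Δ25bp hearts. HRCS96A hearts had 73.4, 51.7 and 50.7 CPM, and compound hearts 58.6, 64.8 and 35.7. All compound libraries and HRCS96A replicates 2 and 3 lay below all 6 hearts without the HRC variant, and HRCS96A replicate 1 lay just above the lowest of those 6. Among females alone, the 2 hearts without the variant (103 and 129.5 CPM) stood above all 6 with it. The 4 males, all without the variant, were at 70.1 to 98.8 CPM. A fitted difference with a sex term therefore leans on these 2 female hearts. Without that term the compound minus nontransgenic difference was smaller, as given below beside the authors' values.

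The edgeR fit, with genotype and sex as terms, put Igf2 in compound hearts 1.08 log2 units below nontransgenic hearts (−1.08, SE 0.27, adjusted p = 0.536). Against MYBPC3Δ25bp the log2 difference was −1.17 (SE 0.26, adjusted p = 0.862), and for HRCS96A against nontransgenic −0.94 (SE 0.27, adjusted p = 0.605). Averaged over all HRC variant carriers against non-carriers it was −1.05 (SE 0.21, 95% interval −1.55 to −0.55, adjusted p = 0.608). None of these edgeR values passed the threshold of 0.05. DESeq2 on the same counts and terms gave adjusted p = 0.0464 for Igf2 in compound against nontransgenic hearts and 0.0101 for carriers against non-carriers, with 0.0543 and 0.148 in the other 2 comparisons. Over the alternatives tried, the adjusted p for Igf2 in compound against nontransgenic hearts ran from 0.0464 to 1.00. For carriers it ran from 0.0101 to 1.00, and it was 0.0370 in edgeR once HRCS96A replicate 1 was left out (log2 difference −1.14).

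Igf1 (chr10:87826378-87937047, plus strand), the growth hormone-responsive ligand, was uniform and low in compound hearts at 19, 18.5 and 18.1 CPM. Nontransgenic hearts had 24.7, 47.4 and 29.8 CPM, and MYBPC3Δ25bp hearts 36.2, 42.6 and 29.0. HRCS96A hearts spanned both ranges with 40.5, 21.1 and 16.3 CPM. The compound libraries lay below all nontransgenic and all MYBPC3Δ25bp libraries. Against the wide spread of the other groups, the log2 differences of −0.63 (SE 0.37, adjusted p = 0.851) from nontransgenic and −0.70 (SE 0.37, adjusted p = 0.882) from MYBPC3Δ25bp hearts did not pass. Both Igf1 and Igf2 overlap an annotated antisense gene (Igf1os and Igf2os), and the sources used here do not state whether counting used strand.

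Neither receptor gene separated compound from nontransgenic hearts. Igf1r (chr7:67951833-68233668, plus strand), the signalling receptor, lay between 26.3 and 37.5 CPM in all 12 libraries. Its group means were 34.6 ± 3.07, 30.6 ± 4.09, 33.5 ± 2.10 and 30.8 ± 2.52 CPM (SD, n = 3) in nontransgenic, MYBPC3Δ25bp, HRCS96A and compound hearts. The 95% interval of the compound minus nontransgenic log2 difference was −0.61 to 0.14, which spans 0.

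Igf2r (chr17:12682406-12769981), the scavenging receptor, measured 136, 157 and 178 CPM in nontransgenic and 117, 103 and 139 in MYBPC3Δ25bp hearts. HRCS96A hearts had 128, 214 and 175 CPM, and compound hearts 182, 161 and 172. Compound libraries were above all MYBPC3Δ25bp libraries and overlapped the nontransgenic ones. In the edgeR fit MYBPC3Δ25bp hearts were lower than nontransgenic by a log2 difference of −0.39 (SE 0.16, adjusted p = 0.579). The compound minus MYBPC3Δ25bp log2 difference was 0.32 (SE 0.20, adjusted p = 0.910). The ratio of Igf2r to Igf1r TPM was 6.65 to 7.94 in compound, 5.45 to 5.98 in nontransgenic, 3.66 to 5.70 in MYBPC3Δ25bp and 4.78 to 7.62 in HRCS96A hearts. The deposited table places Igf2r on the plus strand and GENCODE M21 on the minus strand, where the antisense RNA Airn overlaps it, so its counts are uncertain.

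**Figure D2:**
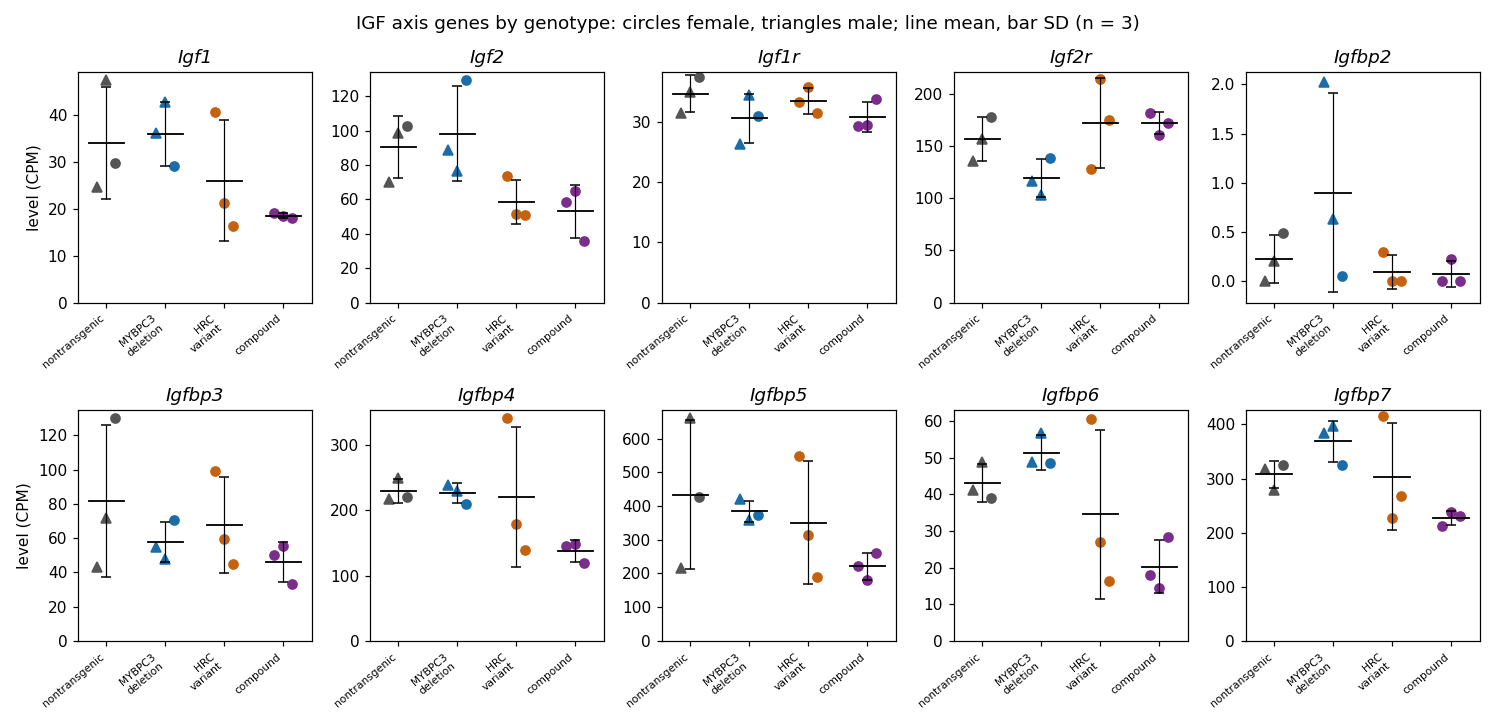
Level in CPM of the 10 IGF axis genes in each library, by genotype (circles female, triangles male, line the mean and bar the SD of 3 libraries). The compound libraries lie below the nontransgenic ones for Igf1, Igf2, Igfbp4, Igfbp6 and Igfbp7, and HRCS96A replicate 1 sits above its group for each of these.

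The binding proteins Igfbp4, Igfbp6 and Igfbp7 shared a pattern in which compound hearts and HRCS96A replicates 2 and 3 were low and HRCS96A replicate 1 was the highest of all 12 libraries. Igfbp4 (chr11:99041260-99052646, plus strand), which codes for an inhibitory binder cut by the protease PAPP-A, measured 218, 250.0 and 220.3 CPM in nontransgenic and 239.5, 229.8 and 210.2 in MYBPC3Δ25bp hearts. HRCS96A hearts had 342, 179 and 139 CPM and compound hearts 146, 149 and 119. Its log2 difference in compound hearts was −0.65 (SE 0.31, adjusted p = 0.787) from nontransgenic, −0.63 (SE 0.31, adjusted p = 0.869) from MYBPC3Δ25bp and −0.67 (SE 0.26, adjusted p = 0.750) from HRCS96A hearts.

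Igfbp6 (chr15:102144186-102149512, plus strand), a binder with a preference for IGF-2, had the widest relative spread of the 3. Nontransgenic hearts measured 41.3, 49.0 and 39.0 CPM, MYBPC3Δ25bp hearts 49.0, 56.9 and 48.5, HRCS96A hearts 60.6, 26.9 and 16.4, and compound hearts 18.0, 14.4 and 28.4. Every compound library was below every library of the nontransgenic and MYBPC3Δ25bp groups. The log2 difference was −0.97 (SE 0.51, adjusted p = 0.831) from nontransgenic and −1.23 (SE 0.50, adjusted p = 0.862) from MYBPC3Δ25bp hearts.

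Igfbp7 (chr5:77349240-77408045, minus strand) measured 317, 279.8 and 326 CPM in nontransgenic and 385, 397 and 326 in MYBPC3Δ25bp hearts. HRCS96A hearts had 416, 227 and 268 CPM and compound hearts 213, 238 and 231. The compound hearts formed the tightest group, at 227 ± 12.8 CPM (SD, n = 3). Their log2 difference was −0.40 (SE 0.23, adjusted p = 0.842) from nontransgenic, −0.66 (SE 0.23, adjusted p = 0.862) from MYBPC3Δ25bp and −0.42 (SE 0.19, adjusted p = 0.780) from HRCS96A hearts. Igfbp7 overlaps Gm34648 and Polr2b on the other strand.

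Igfbp3 and Igfbp5 varied too much within the nontransgenic group for the same separation. Igfbp3 (chr11:7206086-7214081, minus strand), the main carrier of IGF-1 in blood, measured 43.2, 71.6 and 129.9 CPM in nontransgenic hearts, 54.9, 48.0 and 70.5 in MYBPC3Δ25bp, 99.1, 59.4 and 44.8 in HRCS96A and 50.0, 55.2 and 33.2 in compound hearts. The groups overlapped. Its fitted log2 difference between compound and nontransgenic hearts was the largest of the members at −1.27 (SE 0.36, adjusted p = 0.630). It rested on the only nontransgenic female, which had the 129.9 CPM: without that library it was −0.75 (SE 0.54), and without the sex term −0.82 (SE 0.38).

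Igfbp5 (chr1:72858065-72874865, minus strand), a binder that attaches to matrix, measured 216, 660.2 and 426 CPM in nontransgenic, 419.8, 359 and 374 in MYBPC3Δ25bp, 548, 314 and 191 in HRCS96A and 222, 181 and 259.9 in compound hearts. Compound libraries lay below all MYBPC3Δ25bp libraries and overlapped the nontransgenic ones through nontransgenic replicate 1. The log2 differences were −0.94 (SE 0.52, adjusted p = 0.841) and −0.76 (SE 0.52, adjusted p = 0.930).

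Igfbp2 (chr1:72824480-72852474, plus strand) ends 5.6 kb from Igfbp5, with no gene between them in the RefSeq table, and was close to undetected. It had 67 counts in all 12 libraries together, and it was removed by the filter on low counts. MYBPC3Δ25bp replicate 1 held 32 of them (2.02 CPM) and 5 libraries held none, where a count of 0 allows up to 0.157 to 0.179 CPM, a limit that covers counting error only. No test was made for Igfbp2.

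Taking the 9 tested members together, edgeR called none in any of the 8 comparisons fitted, where it also called 0 of 13849 genes (0%). In compound against nontransgenic hearts, 9 of 9 members had a lower fitted level, as did 50.3% of all tested genes. The members' median log2 difference was −0.65, where the median of all tested genes was 0.00. Pearson r of log2 CPM between members ran from −0.84 (Igf2r with Igfbp7) to 0.89 (Igf1 with Igfbp4), so their signs are not separate observations. Igf2 and Igfbp3 had an unadjusted edgeR p under 0.05, as did 6.36% of all genes. DESeq2 called Igf2 alone, against 0.274% of all genes. The 5 members whose compound libraries were all lower stood against 10.0% of all genes that were lower without overlap, and no member was higher without overlap (8.79% of all genes). Igf2r, at −0.07, was higher (0.13) when the sex term was dropped.

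Against MYBPC3Δ25bp hearts, 8 of 9 members had a lower fitted level in compound hearts, at a median of −0.70 (all genes 47.8% lower, median 0.01). Igf2, Igfbp3, Igfbp6 and Igfbp7 had an unadjusted edgeR p under 0.05 (5.73% of all genes), and DESeq2 called no member (0.0433% of all genes). Igf1, Igf2, Igfbp4, Igfbp5, Igfbp6 and Igfbp7 were lower without overlap, against 13.7% of all genes, and Igf2r was higher without overlap, against 11.5%. The sign of Igf1r, at −0.06, turned to 0.01 without the sex term. This comparison and the previous one share the compound libraries and are not independent.

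**Figure D3:**
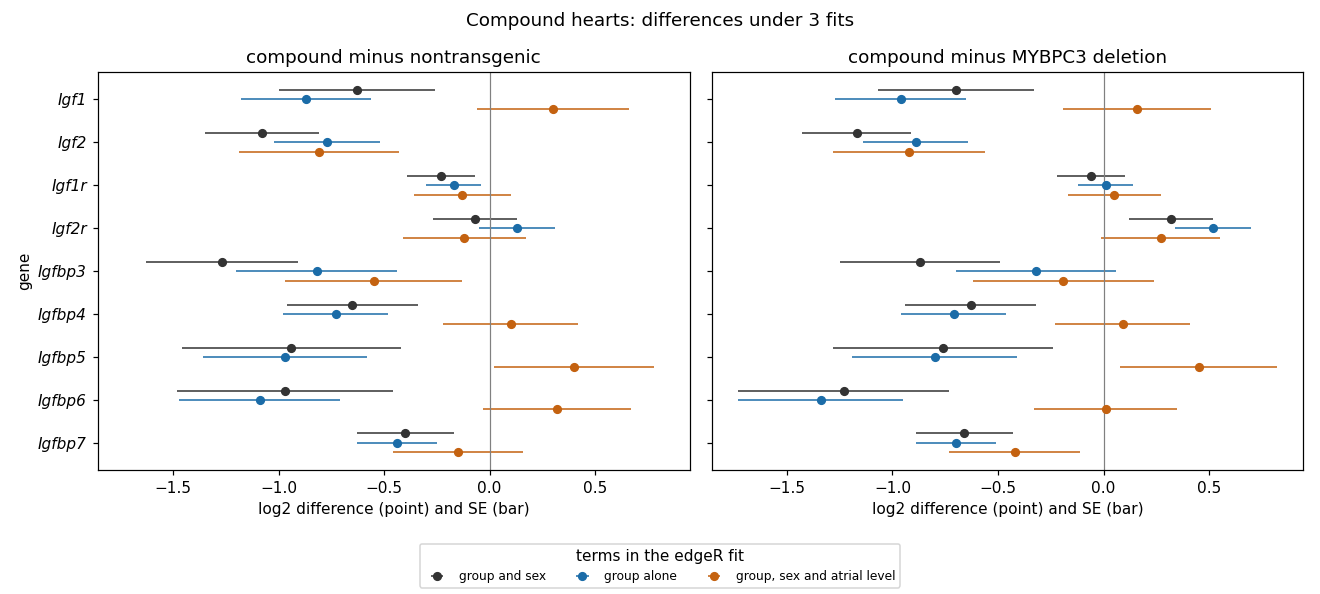
Log2 difference (point) and its SE (bar) of 9 IGF axis genes in compound hearts against nontransgenic (left) and MYBPC3Δ25bp hearts (right), from edgeR fits with 3 sets of terms. With the atrial level as a further term, Igf2 is at −0.81 and −0.92 with wider SE, and Igf1, Igfbp4, Igfbp5 and Igfbp6 are at values from 0.01 to 0.45.

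With either alteration alone, the members' median lay nearer 0. MYBPC3Δ25bp against nontransgenic hearts gave 4 members higher and 5 lower, with a median log2 difference of −0.02 (all genes 50.8% lower, median 0.00). Only Igf2r had an unadjusted edgeR p under 0.05 (8.16% of all genes), and no member was called by DESeq2 (0.664% of all genes). HRCS96A against nontransgenic hearts gave 7 of 9 lower with a median of −0.14 (all genes 49.3% lower, median 0.00). Igf2 alone had an unadjusted edgeR p under 0.05 (6.23% of all genes), and none was called by DESeq2 (0.181%). No member separated without overlap in either comparison, against 5.50% lower and 4.90% higher of all genes for MYBPC3Δ25bp and 3.76% and 4.18% for HRCS96A.

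Compound against HRCS96A hearts gave 9 of 9 lower with a median of −0.49 (all genes 52.4% lower, median −0.01), although Igf2r differed by 0.00. Igfbp4 and Igfbp7 had an unadjusted edgeR p under 0.05 (6.30% of all genes), and DESeq2 called none (0.325%). No member separated without overlap, against 6.22% lower and 6.20% higher of all genes. Carriers of the deletion against non-carriers gave 9 of 9 lower at a median of −0.21 (all genes 54.4% lower, median −0.02). Values ran from −0.03 for Igf2 to −0.48 for Igfbp3. No member had an unadjusted edgeR p under 0.05 (6.18% of all genes) or a DESeq2 call (0.116%). HRC variant carriers against non-carriers gave 8 of 9 lower at a median of −0.42 (all genes 48.6% lower, median 0.01). Igf2 and Igfbp3 had an unadjusted edgeR p under 0.05 (4.92% of all genes), and DESeq2 called Igf2 (0.116% of all genes). The interaction of both alterations, the compound value beyond the sum of the single ones, had a median of −0.49 (all genes −0.01). Igfbp7 alone had an unadjusted edgeR p under 0.05 (log2 −0.68, SE 0.27, adjusted p = 0.563), against 8.54% of all genes, and DESeq2 called no member (0.361% of all genes).

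Some markers of other cell types moved with these differences, and others did not. All 5 atrial markers were lower without overlap in compound hearts than in both nontransgenic and MYBPC3Δ25bp hearts. Of 7 cardiomyocyte markers, Myh6, Ttn and Pln were higher without overlap in compound than in MYBPC3Δ25bp hearts, where the summed levels given above did not overlap either, and Pln was higher than in nontransgenic hearts. Of 6 fibroblast markers, Col1a1, Dcn and Dpt were lower without overlap in both comparisons. The other three overlapped, with group means in compound and nontransgenic hearts of 125 ± 17.5 and 110.3 ± 32.8 CPM for Lum, 43.3 ± 1.91 and 44.1 ± 6.66 for Pdgfra and 16.0 ± 3.74 and 16.3 ± 4.13 for Tcf21 (SD, n = 3). Dcn made up most of the sum, at 693 ± 18.2 and 889.8 ± 35.7 CPM. The summed fibroblast level was 1356 to 1547 CPM in nontransgenic, 1625 to 1779 in MYBPC3Δ25bp, 1119 to 2175 in HRCS96A and 1098 to 1184 in compound hearts. HRCS96A replicate 1, which stood highest for Igfbp4, Igfbp6 and Igfbp7, also had the highest fibroblast sum of the 12 libraries. Epicardium and mesothelium markers summed to 52.4 to 112, 51.9 to 80.8, 25.1 to 84.4 and 21.1 to 44.8 CPM in the same order of groups, with 3 of 5 lower without overlap in each of the 2 comparisons. Of 5 macrophage markers, Csf1r and C1qa were lower without overlap in both, and Cd68, Adgre1 and Mrc1 overlapped in both. Compound and nontransgenic means were 20.3 and 26.8 CPM for Cd68, 11.9 and 11.7 for Adgre1, and 30.1 and 29.8 for Mrc1. Macrophage sums were 175 to 224, 199 to 242, 141 to 275 and 158 to 170.3 CPM. Endothelial sums overlapped among all groups, at 791 to 936, 702 to 816, 780.0 to 813 and 754 to 844 CPM. Of 5 endothelial markers, Pecam1 and Emcn were lower without overlap in compound than in nontransgenic hearts, and Cdh5, Kdr and Tek overlapped. Compound and nontransgenic means were 311 and 310.0 CPM for Cdh5, 176 and 154 for Kdr, and 75.0 and 71.0 for Tek. Against MYBPC3Δ25bp hearts, Emcn was lower and Kdr higher without overlap. Cdh5 was higher without overlap in compound than in HRCS96A hearts. Mural and smooth muscle markers summed to 988 to 1441, 1267 to 2437, 1088 to 1378 and 1033 to 1183 CPM, with 2 of 5 lower and 1 higher without overlap in each of the 2 comparisons. Schwann cell markers summed to 11.7 to 34.9, 16.0 to 27.1, 10.5 to 19.2 and 9.68 to 12.9 CPM, and 3 of 3 were lower without overlap in compound than in MYBPC3Δ25bp hearts. Adipocyte markers summed to 359 to 748, 403 to 629.7, 332 to 396 and 389 to 403 CPM. Of these 4 markers, Plin1 and Cidec were lower without overlap in compound than in MYBPC3Δ25bp hearts, and Adipoq and Fabp4 overlapped. B cell markers summed to 3.26 to 37.8, 4.68 to 73.1, 4.66 to 7.17 and 3.47 to 5.64 CPM, with 1 of 4 lower without overlap there. Neither list had a marker separating compound from nontransgenic hearts. None of these lists had a defining marker at 0 in all libraries of a group. The part of cell composition in the IGF differences was not tested beyond the fit that follows.

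**Figure D4:**
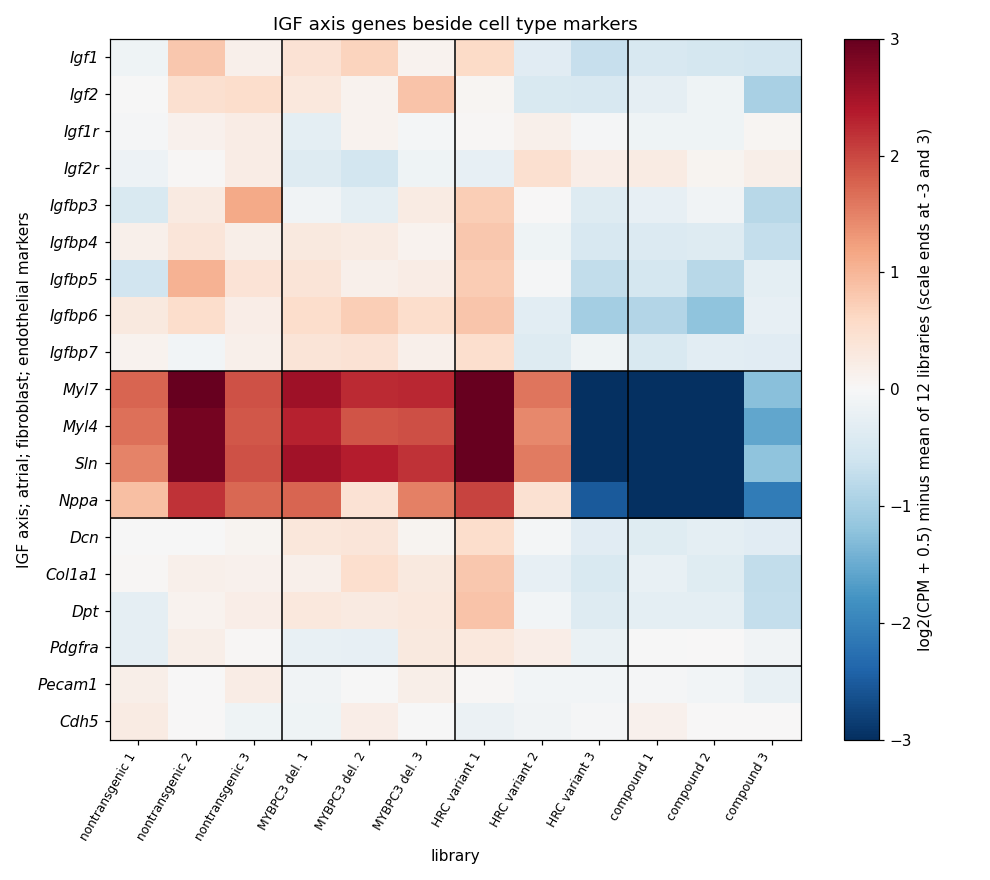
Heat map of log2(CPM + 0.5) minus the mean of the 12 libraries for 9 IGF axis genes and for markers of atrial muscle (Myl7, Myl4, Sln, Nppa), fibroblasts (Dcn, Col1a1, Dpt, Pdgfra) and endothelium (Pecam1, Cdh5), with libraries in columns by genotype. HRCS96A replicate 3 and the compound libraries are blue in the atrial rows and in most secreted IGF members, and HRCS96A replicate 1 is red in both.

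A further fit added the mean log2 level of the atrial markers as a term. The Igf2 compound minus nontransgenic log2 difference became −0.81 (SE 0.38, against 0.27 before) and compound minus MYBPC3Δ25bp −0.92 (SE 0.36). For HRCS96A against nontransgenic hearts it was −0.83 (SE 0.29) and for carriers against non-carriers −0.87 (SE 0.28). Igf1 went from −0.63 to 0.30 (SE 0.36) and from −0.70 to 0.16 (SE 0.35). Igfbp4 was at 0.10 and 0.09, Igfbp5 at 0.40 and 0.45, and Igfbp6 at 0.32 and 0.01. Igfbp7 was at −0.15 (SE 0.31) and −0.42 (SE 0.31), and Igfbp3 at −0.55 (SE 0.42) and −0.19 (SE 0.43). Every adjusted edgeR p of the members in these 2 compound comparisons was 1.00. Summed atrial CPM was 131 to 419 in compound hearts and at least 3330.1 in nontransgenic and MYBPC3Δ25bp hearts. Only the HRCS96A hearts spanned both, at 196 to 8377. Atrial level and compound genotype therefore overlap in part, and the 2 terms cannot be told apart well.

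The authors' deposited table of DESeq2 results called more members than these fits. For compound against MYBPC3Δ25bp hearts, 7 members had a q-value under 0.05 in the authors' deposited table, where 4.24% of the genes with a q-value did. They were Igf1 (log2 fold change −0.94, q = 5.40e-05), Igf2 (−0.87, q = 0.0185), Igf2r (0.54, q = 0.0120), Igfbp4 (−0.70, q = 3.48e-05), Igfbp5 (−0.78, q = 0.000158), Igfbp6 (−1.33, q = 7.91e-06) and Igfbp7 (−0.68, q = 7.91e-06) in the authors' deposited table. For compound against nontransgenic hearts, 5 members passed there, against 2.43% of genes in the authors' deposited table. These were Igf1 (−0.87, q = 0.0151), Igf2 (−0.77, q = 0.0330), Igfbp4 (−0.73, q = 2.63e-05), Igfbp6 (−1.09, q = 0.000835) and Igfbp7 (−0.44, q = 0.0158), all from the authors' deposited table. No member passed in the authors' deposited table for MYBPC3Δ25bp or HRCS96A against nontransgenic (0.0945% and 0.0775% of genes) or for compound against HRCS96A hearts (0.389%). The authors' log2 values were near those of the edgeR fit without the sex term, −0.87 for Igf1 and −0.77 for Igf2 in compound against nontransgenic hearts. No source used here says whether their model held sex.

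The genes around the axis were read from 5 further lists, in which edgeR called no gene in any of the 8 comparisons. The growth hormone list (Ghr, Jak2, Stat5a, Stat5b, Socs2, Cish) holds genes of the pathway that drives Igf1 transcription in liver, feedback inhibition included. Of its 6 genes, 2 had an unadjusted edgeR p under 0.05 in HRCS96A against nontransgenic hearts, both lower (6.23% of all genes). The smallest was that of Cish, a feedback inhibitor of cytokine signalling, with a log2 difference of −1.11 (SE 0.32, adjusted p = 0.605). In compound against nontransgenic hearts 0 of 6 did (6.36% of all genes). In MYBPC3Δ25bp against nontransgenic hearts 2 of 6 did, both lower (8.16% of all genes), with Stat5a, a transcription factor downstream of the growth hormone receptor, at −0.48 (SE 0.16, adjusted p = 0.471).

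Downstream of the receptors, the PI3K-AKT-mTOR-FOXO list had all 22 genes tested. In MYBPC3Δ25bp against nontransgenic hearts 5 of the 22 had an unadjusted edgeR p under 0.05, all lower, with a list median of −0.07. Of all tested genes 8.16% did, and 723 of those 1130 genes were lower. Rptor, the raptor subunit of mTOR complex 1, was at −0.54 (SE 0.14, adjusted p = 0.346) and Mtor, its kinase, at −0.58 (SE 0.18, adjusted p = 0.434). DESeq2 called Rptor there with an adjusted p of 0.0484 and called no other listed gene. In HRCS96A against nontransgenic hearts 2 of 22 were below 0.05 (6.23% of all genes): Foxo3, a transcription factor held out of the nucleus by AKT, at −0.75 (SE 0.20, adjusted p = 0.605) and Pik3r1, a regulatory subunit of PI3K, at −0.94 (SE 0.30, adjusted p = 0.679). The groups overlapped for both genes. Foxo3 had 82.1, 123 and 159 CPM in nontransgenic replicates 1 to 3 and 85.1, 108 and 104 in HRCS96A hearts. Pik3r1 had 61.6, 122 and 160.0 CPM and 66.4, 111 and 92.8 CPM. The highest value of both came from replicate 3, the only nontransgenic female, and a fit with a sex term leans on that heart. In compound hearts the list was near 0, with a median of −0.08 against nontransgenic and 0.00 against MYBPC3Δ25bp hearts, and 1 gene below 0.05 in each (6.36% and 5.73% of all genes). In the interaction 5 of 22 were below 0.05, all higher (8.54% of all genes), led by Rptor at 0.77 (SE 0.20, adjusted p = 0.508, in DESeq2 adjusted p = 0.0481) and Foxo3 at 0.80 (SE 0.23, adjusted p = 0.508).

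The list of genes that act beside the receptors (Insr, Irs1, Irs2, Grb10, Ptpn1 and others) had 9 of 11 genes tested, and medians from −0.06 to 0.11 in the 8 comparisons. Ptpn1, a phosphatase of the insulin receptor, had the smallest p of the list in MYBPC3Δ25bp against nontransgenic hearts (−0.38, SE 0.13, adjusted p = 0.485), and Irs2, an adaptor, was at 0.98 (SE 0.36, adjusted p = 0.750) in compound against HRCS96A hearts. The list on IGF availability joins proteases that cut binding proteins (Pappa, Pappa2, Htra1, Adam12), the PAPP-A inhibitors Stc1 and Stc2, the ternary complex subunit Igfals, and Igfbp1 and Igfbpl1, and 7 of its 9 genes were tested. Igfbpl1, which codes for a protein related to the binding proteins, was low in abundance at 1.55, 5.29 and 3.90 CPM in nontransgenic, 3.22, 2.79 and 2.87 in MYBPC3Δ25bp, 7.42, 1.62 and 0.333 in HRCS96A and 0.221, 0.673 and 0.895 in compound hearts. It was the only gene of the list with an unadjusted edgeR p under 0.05 in compound against nontransgenic hearts (6.36% of all genes), at a log2 difference of −2.62 (SE 1.04, adjusted p = 0.700), and against MYBPC3Δ25bp hearts (5.73%), at −2.34 (SE 1.06, adjusted p = 0.862). Igfals, whose product holds IGF and Igfbp3 or Igfbp5 in a circulating complex, was at 1.57 and 1.39 CPM in HRCS96A replicates 2 and 3 and between 6.32 and 14.2 CPM in the other 10 libraries. It was the only gene of the list under 0.05 in HRCS96A against nontransgenic hearts (6.23% of all genes), at −1.53 (SE 0.64, adjusted p = 0.761), and in the interaction (8.54%), at 1.95 (SE 0.75, adjusted p = 0.563). In compound against HRCS96A hearts both were under 0.05 (6.30% of all genes), Igfals at 1.43 (SE 0.54) and Igfbpl1 at −2.38 (SE 0.92). In the other 3 comparisons none of the 7 was. In the list of the Igf2 locus and its imprinted network, 7 of 10 genes were tested. In compound against nontransgenic hearts 5 of the 7 were higher, with a list median of 0.06. The other 2 were lower, both with an unadjusted edgeR p under 0.05 (6.36% of all genes). Of these, Peg3, an imprinted zinc finger gene, was at −1.62 (SE 0.48, adjusted p = 0.630). Plagl1, an imprinted factor known to act on the Igf2 locus, was at −1.36 (SE 0.49, adjusted p = 0.675) there and at −1.11 (SE 0.39, adjusted p = 0.955) in HRC variant carriers. For both genes the groups overlapped through nontransgenic replicate 1, at 9.29 CPM of Peg3 and 5.42 of Plagl1. Nontransgenic replicates 2 and 3 had 29.4 and 27.7 CPM of Peg3 and 16.3 and 21.6 of Plagl1. Replicate 3 was the only nontransgenic female, and a fit with a sex term leans on it. Compound hearts had 9.68 to 11.1 CPM of Peg3 and 5.31 to 9.99 of Plagl1. H19 and Igfbp1 were not analysed here.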

How the data were processed

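Hearts were dissected and polyadenylated RNA was sequenced as DNA nanoballs, per the labels' protocols. The authors deposited 1 table with estimated counts, TPM, and their own DESeq2 log2 fold changes and q-values for each gene, as the file headers show. HISAT, Bowtie2, DESeq2 and the build GRCm38.p6 appear in the submitters' processing notes. Of the deposited estimated counts 94.3% were whole, and all were rounded. The table had 17380 lines, of which 1 was empty, and 25 symbols that a spreadsheet had turned into dates were restored. edgeR 4.0.16 in R 4.3.3 (quasi-likelihood test, robust, TMM, filter of 10 counts, genotype and sex as terms, all 12 libraries, 7 residual degrees of freedom) tested 13849 genes and left out 3530. Its common biological coefficient of variation was 21.5%. Unless DESeq2 is named, a p in the text is from this edgeR test. P-values were adjusted by Benjamini-Hochberg over all tested genes at a threshold of 0.05. CPM are TMM-scaled, and log2 CPM use a prior count of 0.5. DESeq2 1.42.0, limma 3.58.1, other filters, scalings and terms, and leaving out each library were alternatives, and the fit was tested on simulated data.

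The members, the lists and the tests were chosen with earlier results of these data known. Named were all members, and from each pathway list the genes passing in any comparison or else up to 2 genes with the smallest p in a comparison, given for the comparisons described, with the others as counts. For 4 members the 3 genes most alike were named, among tested genes with a mean log2 CPM of at least 1, without clone and predicted names, and 1 of these genes is not reported here. All 10 members matched RefSeq by gene identifier, and promoter sequences are from RefSeq, build GRCm38.p6.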

Additional observations from a re-analysis of the deposited data

How the results depend on the processing

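The 622 recomputed log2 differences of members covered 25 results. These were all tested members in compound against nontransgenic and MYBPC3Δ25bp hearts, and elsewhere those with an unadjusted edgeR p under 0.05. Of the 622, 592 kept their direction and their side of the threshold, 19 turned direction and 11 passed the threshold. Of 197 recomputed counts of members called, 190 stayed at 0. The main edgeR fit called 0 genes, so no value could fall back across the threshold. Against 0 members called by edgeR, DESeq2 called 1 in compound against nontransgenic hearts (38 genes in all) and 1 in HRC variant carriers (16 genes). Leaving out 1 library at a time gave 0 to 1 members in the carriers, and the 1 was Igf2 without HRCS96A replicate 1. A further 3 alternatives were chosen after seeing the data. Without HRCS96A replicate 1 and the sex term, 3 members were called in compound against MYBPC3Δ25bp hearts (Igfbp4, Igfbp6, Igfbp7, among 84 genes) and 5 in carriers (Igf1, Igf2, Igfbp4, Igfbp6, Igfbp7, among 395 genes). DESeq2 without the sex term called 3 (Igf2, Igfbp6, Igfbp7, among 232 genes) and 1 (Igf2, among 151 genes) in the same comparisons, and 0 members among 153 genes in compound against nontransgenic hearts. With a replicate block 0 members were called in each comparison, with Igf2 at −1.48 (adjusted p = 0.257 in edgeR) in compound against nontransgenic hearts. Same-numbered libraries deviated together only weakly (18 pairs, r from −0.22 to 0.27, 4 over 0.1, 3 of 12 libraries closest to their own number), so the numbers were not taken as pairs.

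Directions turned in 2 ways. With the atrial level as a term, the compound minus nontransgenic log2 difference became 0.30 for Igf1, 0.10 for Igfbp4, 0.40 for Igfbp5 and 0.32 for Igfbp6, and the compound minus MYBPC3Δ25bp difference 0.16, 0.09, 0.45 and 0.01 for the same genes and 0.05 for Igf1r. The cause was not tested. Values near 0 crossed it. Igf2r in compound against nontransgenic hearts was 0.13 without the sex term, 0.14 without HRCS96A replicate 1 and the sex term, 0.14 with the replicate block in place of sex and 0.13 in DESeq2 without sex. Igf1r in compound against MYBPC3Δ25bp hearts was 0.01, 0.02, 0.02 and 0.02 in these 4 fits, and leaving out 1 library gave −0.16 to 0.02, with 0.00 without nontransgenic replicate 3 and 0.02 without MYBPC3Δ25bp replicate 2. Depth limited Igfbp2 alone among the members. For the others each group had 3 libraries, and the sexes were unequal between groups. The part of each in the width of the intervals was not tested.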

Other observations

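For 4 members, genes whose log2 CPM was most like theirs over the 12 libraries were listed among 11536 genes, as a description with no test. The libraries also differ in the atrial and fibroblast levels given above, and the part of these in each likeness was not tested. Igf1 was most like Ifi27l2a (Pearson r 0.98), an interferon-induced gene, Enpp2 (0.98), which codes for autotaxin, and Eef1a1 (0.97), a translation elongation factor. Igf2 was most like Enpp6 (0.93), a choline phosphodiesterase, Serinc3 (0.89) and Pla2g7 (0.87), a secreted phospholipase. Igfbp3 was most like Plagl1 (0.90) and Tmem108 (0.89). Igfbp5 was most like Cacna2d2 (0.98), a calcium channel subunit, Gnao1 (0.96), a G protein subunit, and Nr2f2 (0.95), the transcription factor COUP-TFII known from atrial muscle and veins. The values for Igfbp5 lay above those for Igf2 at each of the 3 places.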
